A study of Mus musculus with 6 samples.

Results

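DNA replication and S phase genes were described as a group of 40 genes, chosen by name from textbook roles in copying the genome, in a study of bone marrow progenitors with lowered Myb. Every one of the 40 had a probe set with exactly 1 gene symbol, out of 19938 such genes on the array. All 40 also passed the filter on dim signal that left 13956 genes in the test. The arrays came from 3 MYB knockdown mice and 3 wild type mice, 1 array per mouse. Animals of both groups were 4 week old males of strain C57BL6, and both groups gave cells of the same gate, Kit+CD11b+Lin-Low, shortened to K11bL in the labels. Kit is the stem cell factor receptor of progenitors and CD11b (Itgam) an integrin chain of myeloid cells. The labels do not say how Myb was lowered, in which cells, or which lineage markers the gate used, and the title of the series calls the cells myeloproliferative. The deposited values are on the log2 scale, so a difference of 1 is a doubling of signal. Probe sets differ in brightness for the same amount of RNA, so each comparison is of the same probe set across arrays.

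Myb, a transcription factor of haematopoietic progenitors, was lower on every knockdown array. Its log2 values were 11.26, 11.08 and 11.14 in knockdown mice 1, 2 and 3, against 11.47, 11.46 and 11.46 in wild type mice 1, 2 and 3. The difference was -0.30 ± 0.06 (SE, adjusted p = 0.0196), and the adjusted p became 0.0777 without knockdown mouse 2 and 0.0963, 0.09 and 0.0928 without wild type mouse 1, 2 or 3. Of the sort markers, Kit averaged 10.22 ± 0.01 in knockdown and 10.50 ± 0.10 in wild type cells (SD, n = 3 each), and Itgam averaged 9.45 ± 0.39 in knockdown and 9.84 ± 0.05 in wild type cells. Knockdown mouse 3 stood apart from the rest, with a correlation over all probe sets of 0.977 and 0.984 with knockdown mice 1 and 2, which had 0.994 with each other. Among wild type arrays it was 0.993 to 0.995. Between the groups, 6.12% of all genes tested rose and 5.48% fell in knockdown (limma, adjusted p under 0.05). Of marker lists for other cells, 1 of 11 measured erythroid genes rose (Car2) and 7 of 8 megakaryocyte genes rose. Of 14 mature neutrophil genes 6 fell and 2 rose (Mmp8 and Padi4), and falls were called in 6 of 7 primary granule genes, 4 of 9 B lymphoid genes (Dntt, Ebf1, Igll1 and Rag1) and 8 of 10 eosinophil and basophil genes. Of the B lymphoid genes measured, Cd79a did not pass the filter on dim signal. Summarised array values do not reach 0 for a gene that is off (the lowest here was 1.83), so whether the sort markers or the markers of other cells were absent could not be read from them.

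A dividing cell loads the MCM helicase onto origins in G1 with the origin recognition complex, Cdc6 and Cdt1. At the start of S phase, Cdc45 and the GINS complex turn that helicase on, primase and the polymerases copy both strands, and the PCNA clamp, placed by replication factor C, holds the polymerases on DNA. Many of these genes are transcribed at the G1 to S transition by E2F factors, so their messages are widely read as a sign of cells in or near S phase. Progenitors of the marrow divide quickly, and Myb is known as a factor that keeps them in an immature, dividing state. In RNA from a sorted population, fewer cells in S phase and less of a message in each cell cannot be told apart.

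The promoters of the members were searched for motifs. Their choice by name used no sequence. Many of these genes are known to be transcribed by E2F factors, as said above, so their E2F share is not independent of that choice. RefSeq promoters of GRCm38.p6, running from 250 bases before to 50 bases after the transcription start, were matched by symbol for 33 of the 40 genes. An E2F motif was searched on both strands, with overlapping matches counted, in 4 spellings. Its spellings began with TT and ended with CGC, and held CC (as in TTCCCGC), or GG (as in TTGGCGC), or CG (as in TTCGCGC), or else GC (as in TTGCCGC). It was found in 22 of these 33 (66.7%), and 11 had no match, among them Mcm2, Orc6, Pcna and E2f1. It was found in 10.9% of the 27025 genes of the promoter table and in 18.1% of the 11096 tested genes that the table holds. The CCAAT box, searched as CCAAT on both strands, was found for 63.6% of the members, 41.1% of all genes and 41.6% of tested genes. A MYB motif, searched on both strands as either TAACNG or with a first C as CAACNG, was found for 54.5% of the members, against 53.1% of all genes and 49.7% of tested genes. These are counts of letters, base composition was not matched, and a match is not a site shown to be used. The promoters of 3 members are printed 5′ to 3′ on the strand of the gene, with E2F matches in capitals. Chaf1b is shown because it had the smallest p of the members, Mcm6 because it had the most matches (5, some overlapping), and Pola1 because its knockdown arrays differed most among themselves.
Chaf1b, chr16:93883651-93883950, plus strand, 2 matches: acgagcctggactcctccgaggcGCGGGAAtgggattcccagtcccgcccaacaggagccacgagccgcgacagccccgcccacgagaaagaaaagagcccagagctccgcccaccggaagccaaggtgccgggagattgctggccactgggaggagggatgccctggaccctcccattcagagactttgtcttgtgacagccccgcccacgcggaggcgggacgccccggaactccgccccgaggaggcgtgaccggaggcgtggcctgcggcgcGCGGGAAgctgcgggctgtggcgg
Mcm6, chr1:128359656-128359955, minus strand, 5 matches: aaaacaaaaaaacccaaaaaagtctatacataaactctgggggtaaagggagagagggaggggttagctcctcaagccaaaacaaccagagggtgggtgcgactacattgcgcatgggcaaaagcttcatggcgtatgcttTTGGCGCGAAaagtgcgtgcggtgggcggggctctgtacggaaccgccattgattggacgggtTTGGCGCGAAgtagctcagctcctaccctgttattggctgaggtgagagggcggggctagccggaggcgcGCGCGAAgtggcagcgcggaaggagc
Pola1, chrX:93632106-93632405, minus strand, 4 matches: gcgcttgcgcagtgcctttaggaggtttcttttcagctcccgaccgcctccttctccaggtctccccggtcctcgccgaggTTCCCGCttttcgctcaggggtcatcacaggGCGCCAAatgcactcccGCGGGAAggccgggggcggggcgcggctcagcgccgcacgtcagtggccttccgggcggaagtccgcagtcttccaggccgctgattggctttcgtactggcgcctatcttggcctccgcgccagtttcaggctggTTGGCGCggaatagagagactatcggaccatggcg

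None of the 40 replication genes passed the test between knockdown and wild type (limma, adjusted p under 0.05), in a comparison that called 6.12% of all genes higher and 5.48% lower in knockdown. At an unadjusted p under 0.05, limma gave 4 members higher (Chaf1b, Rfc2, Gins2 and Orc6) and 0 lower, where 15% of all genes were higher and 10.6% lower. Differences, knockdown minus wild type, ran from -0.22 to 0.36 over the members, with a median of 0.02. The median over all genes tested was also 0.02, with a range from -5.68 to 3.50. The direction was mixed, with 24 members above 0 and 16 below. Of the 13956 genes tested, 7482 were above 0 and 6474 below. The 95% confidence interval of the difference lay within a 1.5-fold change either way for 38 of the 40 members, and within a 2-fold change for all 40. The exceptions were Gins2, whose interval reached 0.62, and Pola1, whose interval reached -0.66. A p that misses the threshold does not show equal expression: the interval lay within a 1.2-fold change for 8 members.

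**Figure D1:**
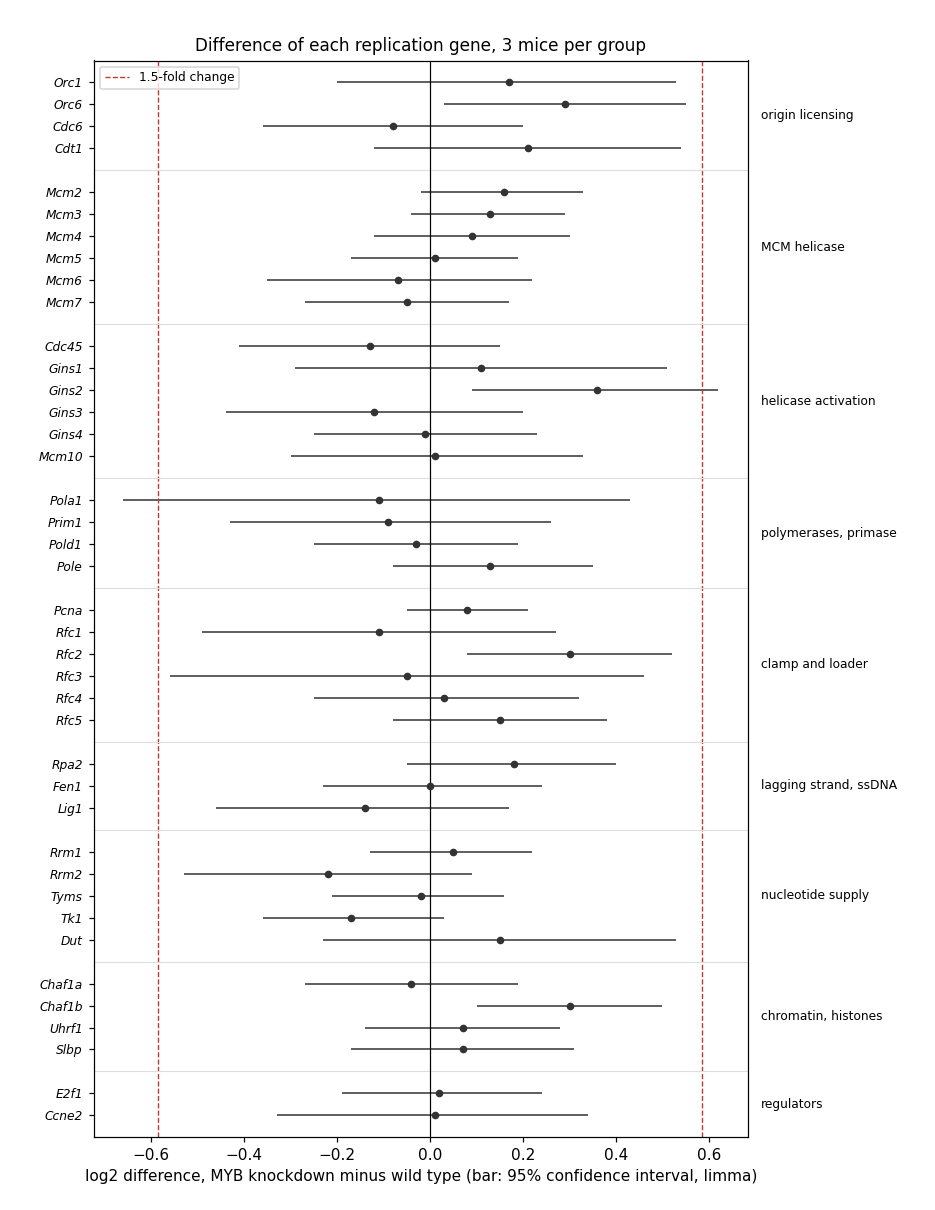
Log2 difference of each of the 40 replication genes, MYB knockdown minus wild type, by role, with points for the estimate and bars for the 95% confidence interval from limma (3 mice per group). All 40 estimates lie between -0.22 and 0.36, and only the intervals of Gins2 and Pola1 cross a dashed line of 1.5-fold change.

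The knockdown and wild type arrays did not overlap for 8 members: 7 were higher on every knockdown array and 1 was lower. Among all genes tested, 19.9% were higher without overlap and 14.4% lower, so 7 of 40 (17.5%) is close to the background and 1 of 40 (2.5%) is below it. Leaving out knockdown mouse 3, 21 of 40 members (52.5%) were higher without overlap, where 32.3% of all genes were. Only Tk1, on the brighter of its probe sets, was then lower, where 22.5% of all genes were.

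**Figure D2:**
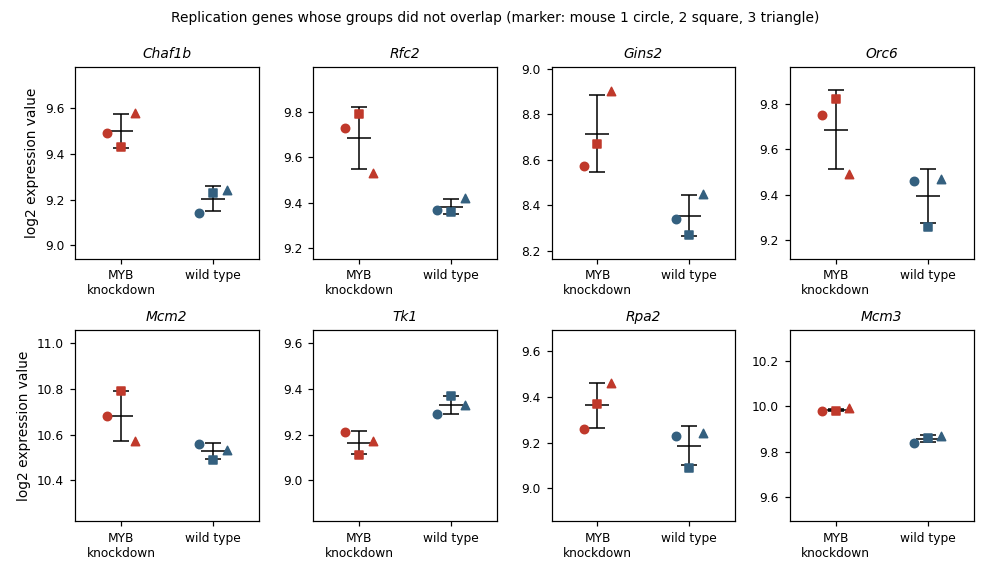
Log2 expression values of the 8 replication genes whose groups did not overlap, MYB knockdown left and wild type right, with each mouse as a point and mean ± SD as a bar (n = 3). The vertical axes differ in level and have the same length, and only Tk1, on the brighter of its probe sets, is lower in knockdown.

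Of the licensing factors, Orc6 separated the groups and the others did not. Orc6, the smallest subunit of the origin recognition complex, had log2 values of 9.75, 9.82 and 9.49 in knockdown mice 1, 2 and 3, against 9.46, 9.26 and 9.47 in wild type mice 1, 2 and 3. Knockdown mouse 3 was only just above the highest wild type mouse, and the difference was 0.29 ± 0.12 (SE, adjusted p = 0.157). Orc1, the large ATPase subunit of the same complex, had 7.22, 7.42 and 6.89 in knockdown and 7.19, 6.82 and 7.02 in wild type cells. Its groups overlapped, with a difference of 0.17 ± 0.16 (adjusted p = 0.594). Cdt1, which brings the helicase to origins, had 9.35, 9.74 and 9.96 in knockdown against 9.48, 9.48 and 9.46 in wild type cells. Its wild type values were nearly identical, while knockdown mouse 1 lay below them and mice 2 and 3 above. Cdc6, the loading ATPase, averaged 7.78 ± 0.19 in knockdown and 7.86 ± 0.09 in wild type cells (SD, n = 3 each).

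The 6 subunits of the MCM helicase, which unwinds DNA at the fork, were all within 0.16 of wild type on average. Mcm2 had log2 values of 10.68, 10.79 and 10.57 in knockdown against 10.56, 10.49 and 10.53 in wild type cells, and Mcm3 had 9.98, 9.98 and 9.99 in knockdown against 9.84, 9.86 and 9.87 in wild type cells. Both were higher on every knockdown array by a small margin, with differences of 0.16 ± 0.08 for Mcm2 (adjusted p = 0.251) and 0.13 ± 0.07 for Mcm3 (adjusted p = 0.339). The other subunits overlapped. Mcm4 had 10.32, 10.22 and 10.10 in knockdown and 10.21, 10.02 and 10.15 in wild type cells (difference 0.09 ± 0.09, adjusted p = 0.637). Mcm5 had 10.65, 10.51 and 10.43 in knockdown and 10.54, 10.51 and 10.52 in wild type cells. Mcm6, whose promoter is printed above, had 11.23, 11.23 and 10.74 in knockdown and 11.14, 11.11 and 11.14 in wild type cells, and Mcm7 had 11.22, 11.17 and 10.86 in knockdown against 11.12, 11.12 and 11.18 in wild type cells. For Mcm5, Mcm6 and Mcm7 the lowest of the 6 arrays was knockdown mouse 3 and the highest another knockdown mouse, so the group means hid opposite deviations. These 6 proteins work as 1 ring, and their messages did not move by the same amount in mouse 3.

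Among the factors that activate the helicase, Gins2 had the largest difference of all members. Gins2, a subunit of the 4-protein GINS complex, had log2 values of 8.57, 8.67 and 8.90 in knockdown mice 1, 2 and 3, against 8.34, 8.27 and 8.45 in wild type mice 1, 2 and 3. All knockdown arrays lay above all wild type arrays, and the difference was 0.36 ± 0.12 (1.28-fold, adjusted p = 0.0873). Its partners in the complex overlapped between the groups, and differences between the partners were not tested. Gins4 had 10.01, 10.05 and 9.73 in knockdown and 10.00, 9.85 and 9.97 in wild type cells, with all wild type values inside the knockdown range. Gins3 averaged 8.13 ± 0.23 in knockdown and 8.25 ± 0.14 in wild type cells (SD, n = 3 each). Gins1 had 9.20, 9.25 and 8.60 in knockdown and 9.03, 8.87 and 8.82 in wild type cells, with knockdown mice 1 and 2 above all wild type arrays and mouse 3 below them. Cdc45, the third component of the active helicase, had 9.16, 9.19 and 8.80 in knockdown against 9.17, 9.20 and 9.17 in wild type cells. Knockdown mice 1 and 2 lay at the wild type level and mouse 3 below it, and the difference was -0.13 ± 0.12 (adjusted p = 0.578). Mcm10, an initiation factor, averaged 9.23 ± 0.28 in knockdown and 9.21 ± 0.03 in wild type cells.

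The polymerases, the clamp and its loader gave 1 member with separated groups. Rfc2, a subunit of the clamp loader replication factor C, had log2 values of 9.73, 9.79 and 9.53 in knockdown against 9.37, 9.36 and 9.42 in wild type cells. The groups did not overlap, and the difference was 0.30 ± 0.10 (1.23-fold, adjusted p = 0.0844). Rfc5, another loader subunit, had 11.01, 10.98 and 10.69 in knockdown and 10.65, 10.84 and 10.74 in wild type cells (0.15 ± 0.10, adjusted p = 0.424). Its mice 1 and 2 were above all wild type arrays and mouse 3 among them. Rfc1, Rfc3 and Rfc4 had differences between -0.11 and 0.03. Pcna, the clamp itself, had 11.87, 11.82 and 11.84 in knockdown and 11.85, 11.72 and 11.71 in wild type cells, and its second probe set differed from these by at most 0.01. Pcna, Tk1 and Slbp each had a pair of probe sets with their symbol, the brighter is used, and which of the pair lies in the gene itself was not checked. Pole, the catalytic subunit of the leading-strand polymerase, had 9.94, 9.90 and 9.72 in knockdown and 9.61, 9.76 and 9.78 in wild type cells (0.13 ± 0.09, adjusted p = 0.446). Pold1, of the lagging-strand polymerase, averaged 9.06 ± 0.05 in knockdown and 9.09 ± 0.11 in wild type cells. Prim1, the primase that lays the first RNA bases, averaged 9.38 ± 0.29 in knockdown and 9.46 ± 0.13 in wild type cells (SD, n = 3 each).

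Of the genes that protect and join new strands, Rpa2, a subunit of the single-strand binding protein, had 9.26, 9.37 and 9.46 in knockdown against 9.23, 9.09 and 9.24 in wild type cells. The lowest knockdown array exceeded the highest wild type array by a margin that is small beside the spread, and the difference was 0.18 ± 0.10 (adjusted p = 0.313). Lig1, the ligase of lagging-strand fragments, had 9.98, 9.93 and 9.46 in knockdown and 9.91, 9.91 and 9.98 in wild type cells. Here mice 1 and 2 lay at the wild type level and mouse 3 below it. Fen1, the flap nuclease, averaged 8.61 ± 0.09 in knockdown and 8.61 ± 0.10 in wild type cells (SD, n = 3 each).

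Of the 5 genes of nucleotide supply, 3 had a difference below 0 and 2 above, and none passed the test. Tk1, the thymidine kinase of S phase, had log2 values of 9.21, 9.11 and 9.17 in knockdown against 9.29, 9.37 and 9.33 in wild type cells (-0.17 ± 0.08, adjusted p = 0.266). On this probe set, the brighter of its pair, it was the 1 member that was lower on every knockdown array. Its second, dimmer probe set did not show this, with 8.59, 8.66 and 9.11 in knockdown and 8.63, 8.88 and 8.70 in wild type cells, so the sign for Tk1 depended on the probe set, and the brighter one may not be the one that measures Tk1. Rrm2, the S phase subunit of ribonucleotide reductase, had 11.02, 10.96 and 10.48 in knockdown and 11.10, 10.94 and 11.08 in wild type cells. Its difference was the most negative of the members (-0.22 ± 0.14, adjusted p = 0.377), with mice 1 and 2 inside the wild type range and mouse 3 below it. Rrm1, the large subunit of the same enzyme, had 11.54, 11.45 and 11.27 in knockdown and 11.37, 11.35 and 11.39 in wild type cells. Tyms, thymidylate synthase, averaged 10.17 ± 0.09 in knockdown and 10.19 ± 0.06 in wild type cells, and Dut, which removes dUTP, averaged 9.33 ± 0.29 in knockdown and 9.18 ± 0.22 in wild type cells (SD, n = 3 each).

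Chromatin assembly gave the member with the smallest p. Chaf1b, a subunit of the CAF-1 complex that deposits histones behind the fork, had log2 values of 9.49, 9.43 and 9.58 in knockdown mice 1, 2 and 3, against 9.14, 9.23 and 9.24 in wild type mice 1, 2 and 3. The groups did not overlap, mouse 3 included, and the difference was 0.30 ± 0.09 (1.23-fold, adjusted p = 0.0672). Chaf1a, its partner in CAF-1, averaged 8.04 ± 0.08 in knockdown and 8.08 ± 0.06 in wild type cells (SD, n = 3 each). Slbp, which binds the stem loop of histone messages, had 9.60, 9.43 and 9.45 in knockdown and 9.58, 9.28 and 9.41 in wild type cells, and the difference on its dimmer probe set was 0.03. As for Tk1, which of them lies in the gene was not checked. Uhrf1, a reader of hemimethylated DNA needed to copy DNA methylation, averaged 9.49 ± 0.12 in knockdown and 9.42 ± 0.03 in wild type cells. The groups overlapped for both regulators of S phase entry among the members. E2f1, a transcription factor of S phase entry, had 8.74, 8.83 and 8.80 in knockdown and 8.86, 8.73 and 8.71 in wild type cells (0.02 ± 0.09, adjusted p = 0.93), and Ccne2, cyclin E2, had 9.33, 9.19 and 8.90 in knockdown against 9.30, 8.89 and 9.20 in wild type cells.

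The knockdown mice did not behave alike for these genes. Knockdown mouse 3 lay below both other knockdown mice for 31 of the 40 members (77.5%), where it did so for 42.9% of all genes, and it was the lowest of all 6 arrays for 20 members (50%), against 29.3% of all genes. The members' median deviation from the wild type mean was 0.12, 0.10 and -0.12 in knockdown mice 1, 2 and 3, and 0.05, -0.04 and 0.02 in wild type mice 1, 2 and 3. Over all genes tested, the medians of the knockdown mice were 0.01, 0.03 and 0.05. For 9 members, mice 1 and 2 were above all wild type arrays and mouse 3 below all of them (Mcm6, Gins1, Gins4, Mcm10, Pola1, Rfc1, Rfc3, Rrm1 and Uhrf1), a pattern held by 7.71% of all genes. Pola1, the catalytic subunit of the priming polymerase and named here after its values were seen, had 9.71, 9.61 and 8.70 in knockdown against 9.51, 9.35 and 9.51 in wild type cells. Rfc3, also named after its values were seen, had 9.22, 9.34 and 8.47 in knockdown and 9.19, 8.82 and 9.17 in wild type cells. Against this pattern, Cdt1, Mcm3, Gins2, Rpa2 and Chaf1b were highest of all arrays in mouse 3, Mcm3 by a margin of only 0.01. The SD among knockdown arrays exceeded that among wild type arrays for 34 of the 40 members, and for 79.9% of all genes, so the wider spread in knockdown was general.

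**Figure D3:**
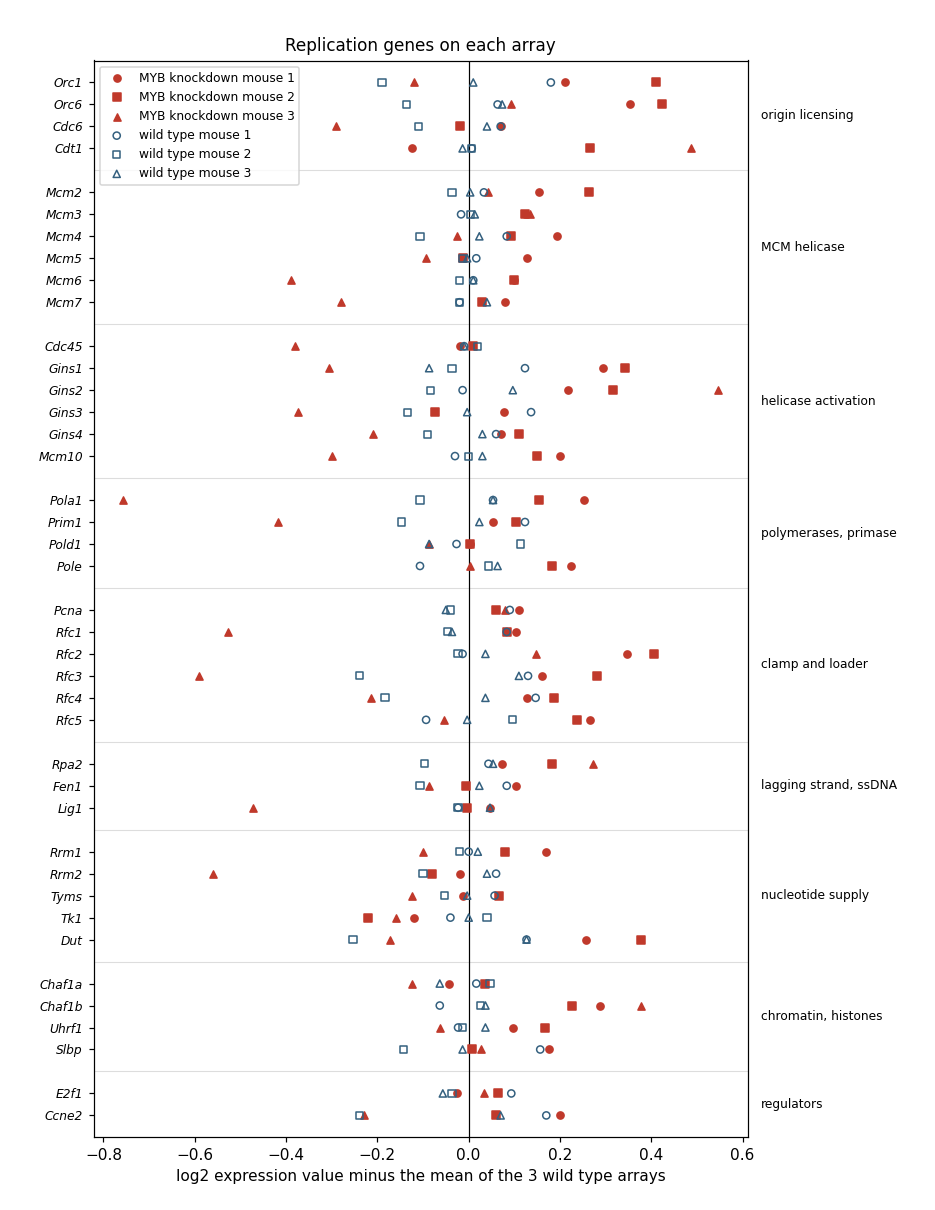
Log2 value of each replication gene on each array minus the mean of the 3 wild type arrays, with knockdown mice as filled and wild type mice as open symbols. Knockdown mouse 3 (filled triangles) is the lowest of all arrays for 20 of 40 genes, while mice 1 and 2 lie mostly to the right of 0.

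Mouse 3 was also the most extreme array for the erythroid list and Itgam, while the other marker lists did not single it out. Of the erythroid markers, 10 of 11 were above all wild type arrays in mouse 3, 7 in mouse 1 and 4 in mouse 2, and the mean level of the list was 8.32, 7.76 and 8.83 in knockdown mice 1, 2 and 3, against 7.75 to 8.16 in wild type mice. Itgam was 9.85, 9.43 and 9.07 in knockdown mice 1, 2 and 3, against 9.81 to 9.90 in wild type mice. The mature neutrophil list averaged 9.52, 8.89 and 8.89 in knockdown mice 1, 2 and 3 and 9.46 to 9.96 in wild type mice. In the same order, the primary granule list averaged 10.00, 9.98 and 9.96 in knockdown, against 11.27 to 11.44 in wild type mice. For the megakaryocyte list these values were 9.07, 8.87 and 8.95, against 7.33 to 7.46. The B lymphoid list had 6.43, 6.15 and 6.17, against 6.71 to 7.21. The eosinophil and basophil list had 7.52, 6.79 and 7.28, against 9.32 to 9.60. The part of these cell types, or of mouse 3's RNA, in the replication values was not tested.

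Without knockdown mouse 3, 7 members rose and 0 fell (limma, adjusted p under 0.05), where 17.2% of all genes rose and 10% fell. The 7 are 17.5% of the members, a share close to the background. At an unadjusted p the comparison on all arrays had named 4 of them, and the other 3 were Gins1, Rfc5 and Mcm2. Rfc2 then rose by 0.37 ± 0.06 (adjusted p = 0.00178), Orc6 by 0.39 ± 0.08 (0.00622), Gins1 by 0.32 ± 0.08 (0.0132) and Chaf1b by 0.26 ± 0.06 (0.0154). Rfc5 rose by 0.25 ± 0.06 (0.0188), Mcm2 by 0.21 ± 0.06 (0.0218) and Gins2 by 0.27 ± 0.08 (0.0304). Of all members 36 were above 0 in that fit, against 24 on all arrays, and the median difference was 0.11. The median over all genes in that fit was 0.01. With any other array left out, limma called 0 members. The shares of all genes that rose and fell were 5.57% and 5.8% without knockdown mouse 1, and 3.09% and 3.44% without knockdown mouse 2. They were 2.12% and 2.63%, 2.19% and 2.72%, and 2.54% and 2.81% without wild type mouse 1, 2 or 3. In these fits the members' median difference lay between -0.02 and 0.05. With the replicate number as a block, limma called 0 members, where 5.35% of all genes rose and 5.2% fell. At an adjusted p under 0.1, the members higher were Chaf1b, Rfc2 and Gins2 (7.5% of the 40) and 0 were lower, where 9.85% of all genes were higher and 7.45% lower. Other settings on all arrays also gave calls. After median centring of the arrays Chaf1b, Rfc2 and Gins2 rose (adjusted p = 0.0299, 0.0385 and 0.0439) and 0 members fell, where 10.3% of all genes rose and 4.25% fell. Array weights gave knockdown mouse 3 the lowest weight (0.119). With them 10 members rose and Tk1, on its brighter probe set, fell, where 21.6% of all genes rose and 13.9% fell.

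The 49 measured genes of a wider list of 50 replication genes, none of them among the 40, gave 1 that rose and 0 that fell, with a median of 0.08, where 6.12% of all genes rose and 5.48% fell. At an unadjusted p under 0.05 limma gave 10 higher and 2 lower, against 4 and 0 of the 40 members. Of all genes, 15% were higher and 10.6% lower at that threshold. Without overlap, 13 of the 49 were higher and 3 lower, where 19.9% of all genes were higher and 14.4% lower. The difference between the lists was not tested. The 1 that rose was Ccne1, cyclin E1, which with CDK2 drives entry into S phase. Ccne1 had log2 values of 9.15, 9.07 and 9.25 in knockdown against 8.71, 8.58 and 8.73 in wild type cells, and rose by 0.48 ± 0.10 (1.40-fold, adjusted p = 0.0166). Leaving out wild type mouse 1, 2 or 3 ended this call. Dctpp1, a pyrophosphatase of dCTP and its modified forms, had 8.95, 9.28 and 9.71 in knockdown and 8.72, 8.63 and 8.80 in wild type cells (0.59 ± 0.18, adjusted p = 0.0695). Pole3 and Pold2, accessory subunits of polymerases epsilon and delta, had differences of 0.30 ± 0.10 (adjusted p = 0.0987) and 0.35 ± 0.12 (adjusted p = 0.108). E2f7, a repressor of the E2F programme, differed by 0.26 ± 0.10 (adjusted p = 0.135). In Dctpp1, Pold2, Pole3 and E2f7, mouse 3 was the highest of all arrays. Over the wider list it was the highest for 10 genes and the lowest for 21, with a median deviation of -0.09. Without knockdown mouse 3, 13 of the wider list rose and 1 fell, where 17.2% of all genes rose and 10% fell. The 1 that fell was Cdc7, the kinase that fires origins, named after its values were seen.

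Neighbouring programmes gave a scale for these values. Of 27 measured genes of G2 and mitosis, 1 rose, Cdc25b, a phosphatase that activates CDK1 (0.51 ± 0.13, adjusted p = 0.0354), and 0 fell, with a median of -0.05. That 1 call ended when any array other than that of knockdown mouse 3 was left out. Their median deviation was 0.10, -0.01 and -0.29 in knockdown mice 1, 2 and 3, and mouse 3 was below all wild type arrays for 21 of the 27. It was so for a smaller share of the replication genes, 21 of 40 (52.5%), and for 36.5% of all genes. Of 21 nucleolar genes, 10 rose and 0 fell, with a median of 0.36 and deviations of 0.34, 0.46 and 0.23 in knockdown mice 1, 2 and 3. On all arrays 6.12% of all genes rose and 5.48% fell. The count of nucleolar genes that rose was 1, 3 and 3 without wild type mouse 1, 2 or 3, 4 without knockdown mouse 2 and 20 without knockdown mouse 3. The share of all genes that rose moved too. It was 2.12%, 2.19% and 2.54% without wild type mouse 1, 2 or 3, 3.09% without knockdown mouse 2 and 17.2% without knockdown mouse 3. The differences between these lists and the replication genes were not tested.

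**Figure D4:**
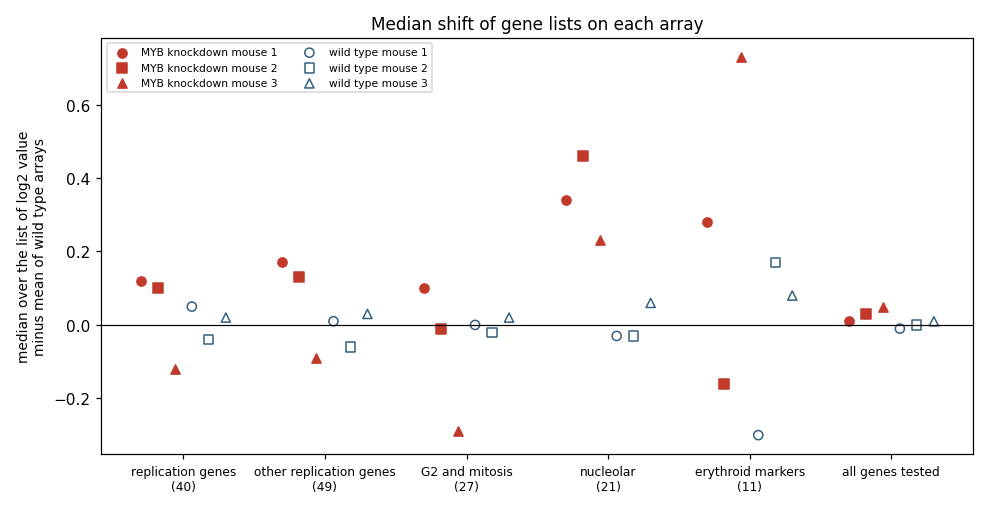
Median over each gene list of the log2 value minus the wild type mean, for each array, with knockdown mice as filled and wild type mice as open symbols. For the replication genes the medians were 0.12, 0.10 and -0.12 in knockdown mice 1, 2 and 3, and the erythroid markers were highest in knockdown mouse 3.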

How the data were processed

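Total RNA was labelled with a whole-transcript kit and hybridised to Affymetrix arrays, per the labels' protocols. The authors deposited a log2 value for each probe set on each array, using Affymetrix Expression Console and limma per the submitters' processing notes. Versions, roles, background correction and normalization were not given in the sources used here. That values are log2 was inferred from their range (1.83 to 13.26, array medians 5.87 to 5.99). Of 35556 probe sets, 21789 had 1 symbol in the platform annotation, 1621 several and 12146 none listed. Per gene, the probe set of highest mean over the 6 arrays was used, and the dimmest 30% of genes were left out. Knockdown and wild type were compared in limma 3.58.1 (R 4.3.3), with lmFit, eBayes with a trend and no covariates. Benjamini-Hochberg adjustment was over all genes tested. The fit was also tried on simulated normal values of equal spread in both groups, a setting these arrays do not share. Adjusted p and SE come from the fit on the deposited values, or from the same test under the setting named beside them. The labels name separate mice; their number limits the precision, and no scan batch was given. The naming rule took members called, the smallest p and brightest probe signal in each of 9 roles, 6 further by p, and Mcm2 to Mcm7. Other members, among them Gins1, Pola1 and Rfc3, were described outside this rule. The members and lists were chosen with earlier results of these data known. List genes with no probe set of their own were not analysed here. Alternatives were left-out arrays, the replicate block, scaling, filters, variance models and thresholds.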

Additional observations from a re-analysis of the deposited data

How the results depend on the processing

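On all arrays the count of replication genes called higher was 0, and it became 3 after median centring, 3 at an adjusted p under 0.1, 10 with array weights and 7 without knockdown mouse 3 (range 0 to 7 over left-out arrays). The count called lower was 0, and 1 with array weights (Tk1, on its brighter probe set). With array weights 21.6% of all genes were higher and 13.9% lower, and after median centring 10.3% and 4.25%. These shares of all genes were 9.85% and 7.45% at an adjusted p under 0.1, and 17.2% and 10% without knockdown mouse 3. On all arrays at the main threshold they were 6.12% and 5.48%. The median difference of the members was 0.02, and its values under all alternatives lay between -0.02 and 0.11. After median centring it was 0.09, and the median of all genes was then also 0.09. The naming rule gave 15 members a difference. Of their 240 values under alternatives, 221 kept their sign and side of the threshold, 18 passed it, and 1 turned sign (E2f1, -0.0048 without wild type mouse 3, and up to 0.07 with another array left out). As none of the 15 had passed on all arrays, no call could be lost. The 221 are therefore no measure of stability. Members higher without overlap numbered 7, or 7 to 21 with 1 array left out. Members lower without overlap numbered 1, or 1 to 2 with 1 array left out, 2 after quantile normalization and 0 when probe sets of a gene were averaged. Of all genes, 19.9% were higher without overlap and 14.4% lower on all arrays, and 32.3% and 22.5% without knockdown mouse 3. These shares were not counted for the other left-out arrays, quantile normalization or averaged probe sets. The wider replication list had 1 called higher, and 2 with the replicate block, 3 after median centring, 3 at an adjusted p under 0.1, 15 with array weights, 0 with a minimum change of 1.2-fold and 0 to 13 with 1 array left out. It had 0 called lower, 3 with array weights and 0 to 1 with 1 array left out. G2 and mitosis genes called higher numbered 1, 2 with array weights, 0 with the minimum change and 0 to 2 with 1 array left out, and 2 were lower with array weights. Nucleolar genes called higher numbered 10, 6 with the replicate block, 20 with array weights, 1 with the minimum change and 1 to 20 with 1 array left out. The share of all genes called with the minimum change was not counted. Myb differed by -0.30, by -0.23 after median centring (adjusted p = 0.074), by -0.30 without the trend (0.0662) and with the minimum change (1), and by -0.35 to -0.26 with 1 array left out. Causes were not tested, and fits without 1 array have fewer mice. The replicate numbers name different mice, and same-numbered arrays had correlations of their deviations of 0.293, -0.188 and -0.083. With the number as a replicate block, 0 members were called and their median stayed at 0.02.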
